A study of Mus musculus with 16 samples.

Results

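Macrophages recovered by bronchoalveolar lavage from uninfected mice differed among themselves in how strongly they expressed chemokine, cytokine, NF-kB and immediate early genes, and the difference followed the replicate numbers in the sample titles. The libraries described here are the 8 control libraries among the 16 of the series, 4 of them from wild-type animals (WT) and 4 from Tlr3 knockout animals (TLR3-KO), which lack the Toll-like receptor for double-stranded RNA. Those numbered 1 and 2 in each genotype, 4 libraries called 1-2 below, were set against those numbered 3 and 4, 4 libraries called 3-4 below. The sets were selected on measured values, the scores of these same libraries on the first principal component of expression, so every difference between 1-2 and 3-4 in the controls is given as a description, without a p-value.

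The treatment label of the control mice reads none, while the protocol text names saline as the alternative to the bacterial suspension. The other 8 libraries, called injured in the titles, came from WT and TLR3-KO mice, 4 of each, sampled following pneumonia caused by 500 CFU of Klebsiella pneumoniae in 30 µl given through the hypopharynx. The time after infection, the age, sex and strain of the mice, how the knockout was made, and what the title numbers stand for (animals, pools, days or cages) are not given in the sources used here. The series' design text counts 15 samples, with 3 or 4 replicates per group, whereas the sample list and the count table hold 16, 4 in each group. Each value per library is in CPM, a gene's count scaled to the library's total, and each fold change is that of an edgeR model of the 8 controls with genotype as covariate.

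Alveolar macrophages are the resident phagocytes of the airspaces. When a pattern receptor or a cytokine receptor is engaged, NF-kB and AP-1 factors enter the nucleus and switch on immediate early genes, then chemokines and cytokines that call in neutrophils and monocytes, and then feedback inhibitors of the same pathway. Surfactant, and the cells' own handling of lipid and oxidants, shape the resting state of these cells in the lung.

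Among the genes that stood higher in libraries 1-2, Cxcl2 is a chemokine that attracts neutrophils and Nr4a1 is an orphan nuclear receptor of the immediate early class. The 250 bases before their RefSeq starts (GRCm38.p6) are shown because they carry the letters that NF-kB and CREB-type factors are known to prefer. That of Cxcl2 lies at chr5:90903649-90903898 and that of Nr4a1 at chr15:101266596-101266845, both on the plus strand. The Nr4a1 window lies within the longer span that GENCODE gives the gene. Capitals mark 2 overlapping kB motifs in Cxcl2, from base -97 to base -87, and 4 copies of TGCGTCA in Nr4a1, beginning at bases -235, -215, -71 and -42 before the start.
Cxcl2: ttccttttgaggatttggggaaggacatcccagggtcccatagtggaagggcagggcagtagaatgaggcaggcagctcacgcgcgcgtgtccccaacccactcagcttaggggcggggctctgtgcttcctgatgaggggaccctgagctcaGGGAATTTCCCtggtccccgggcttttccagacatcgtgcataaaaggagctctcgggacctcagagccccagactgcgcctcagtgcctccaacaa
Nr4a1: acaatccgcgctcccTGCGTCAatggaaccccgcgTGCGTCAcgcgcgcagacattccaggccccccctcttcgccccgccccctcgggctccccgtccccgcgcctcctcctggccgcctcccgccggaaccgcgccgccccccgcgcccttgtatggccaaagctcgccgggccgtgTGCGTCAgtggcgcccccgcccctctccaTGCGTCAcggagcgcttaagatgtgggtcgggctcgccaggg

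On the first principal component of log2 CPM over all 16 libraries, which held 37.2% of the variance, WT controls 1 to 4 scored 22.1, 19.7, -25.6 and -14.5. TLR3-KO controls 1 to 4 scored 8.05, 13.9, -36.6 and -32.4. All 4 libraries of 1-2 were positive and all 4 of 3-4 were negative, which is the observation that defined the sets. The injured libraries of WT scored between -10.8 and 11, and those of TLR3-KO between 5.04 and 18.8, so they fell between the control sets or beside libraries 1-2.

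**Figure D1:**
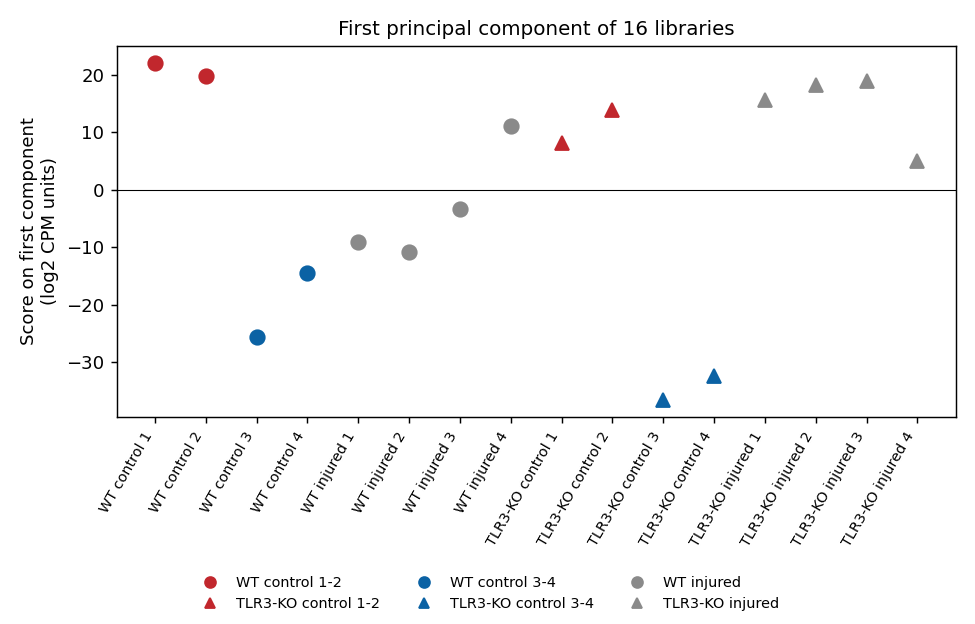
Score of each library (vertical axis, log2 CPM units) on the first principal component of all 16 libraries, named along the horizontal axis. Red marks control libraries 1-2, blue control libraries 3-4 and grey injured libraries, with circles for WT and triangles for TLR3-KO; the 4 red points lie above 0 and the 4 blue points below it.

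Of 12067 genes tested outside chromosomes X and Y, 330 (2.73%) were at least 2-fold higher in libraries 1-2 with no overlap between the CPM of the 4 libraries and those of the other 4. In the other direction 447 genes (3.7%) were at least 2-fold higher in libraries 3-4 by the same rule, and 777 (6.44%) in either direction. These are the genes called higher below, and the shares of all genes against which each count of called list members stands. Without the 2-fold requirement, 1115 genes (9.24%) lay higher in all libraries of 1-2 and 2475 (20.5%) higher in all of 3-4, which makes 3590 (29.8%) without overlap. With library totals alone in place of the TMM scaling, the median log2 change of all genes moved from -0.01 to -0.14 and the counts became 242 and 577, so the share of calls in each direction depends on the scaling. Of the 330 genes called higher in libraries 1-2, 254 had a mean of at least 5 CPM there, against 176 of the 447 called higher in libraries 3-4.

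The sets were chosen on libraries of both genotypes and a call needs all 4 libraries of a set, so the direction of a called gene within each genotype was fixed by the choice and supports nothing. As a description, of the 330 genes called higher in libraries 1-2, 243 were at least 2-fold higher in each genotype taken alone, and the median log2 change was 1.32 in WT and 1.37 in TLR3-KO. Of the 447 genes called higher in libraries 3-4, 311 were at least 2-fold higher there in each genotype, with medians of -1.29 and -1.40. Across the 12067 genes the WT and TLR3-KO differences had a Pearson r of 0.65 and a Spearman rho of 0.71, a description over genes, which are not independent replicates, in libraries whose sets were chosen alike in both genotypes.

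**Figure D2:**
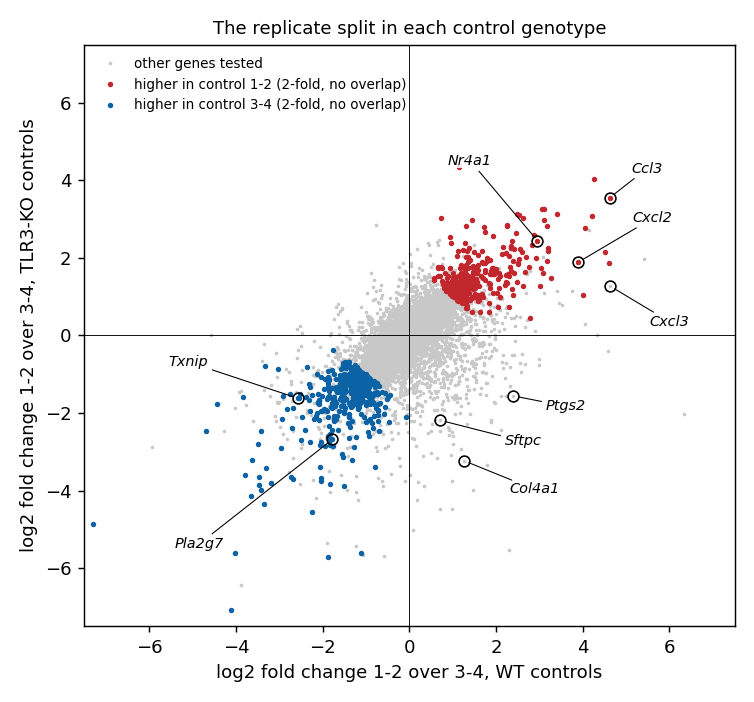
Log2 fold change of libraries 1-2 over 3-4 for each gene tested, in WT controls (horizontal axis) and TLR3-KO controls (vertical axis). Red and blue points are the 330 and 447 genes called higher in libraries 1-2 and 3-4, which the call places in opposite corners; ringed genes are named, with Ptgs2, Sftpc and Col4a1 on opposite sides of 0 in the 2 genotypes.

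Chemokines stood at the top of the genes higher in libraries 1-2. Ccl3, the chemokine MIP-1 alpha that attracts monocytes and neutrophils (chromosome 11, 83647844 to 83649355 in mm10), measured 386 and 338 CPM in WT controls 1 and 2 and 245 and 143 CPM in TLR3-KO controls 1 and 2. In controls 3 and 4 it measured 12.8 and 20.2 CPM in WT and 16.5 and 19.6 CPM in TLR3-KO. Every library of 1-2 was thus far above every library of 3-4, by 16.9-fold in the fit (log2 4.08, SE 0.28). Its neighbour Ccl4 (MIP-1 beta) lay between 16.9 and 76.6 CPM in libraries 1-2 and between 2.34 and 6.21 CPM in libraries 3-4, 9.85-fold apart (log2 3.30, SE 0.47). Ccl2, the monocyte attractant MCP-1, had the largest fitted difference of the 12 genes named in this direction, 5.50 ± 1.43 CPM (SD, n = 4) against 0.336 ± 0.113 CPM, or 17.7-fold (log2 4.15, SE 0.31).

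Cxcl1, Cxcl2 and Cxcl3, of the neutrophil-attracting CXC chemokines, had larger values of the difference in WT than in TLR3-KO. Cxcl2 (chromosome 5, 90903871 to 90905938) measured 813 and 701 CPM in WT controls 1 and 2 and 45.4 and 68.2 CPM in WT controls 3 and 4. Its TLR3-KO values were 279 and 158 CPM against 65.9 and 62.1 CPM, so that the sets did not overlap in either genotype while the log2 difference was 3.90 in WT and 1.89 in TLR3-KO. Cxcl3 measured 619 and 462 CPM in WT controls 1 and 2 against 18.8 and 30.4 CPM in 3 and 4, but 107 and 33.9 CPM against 43.3 and 19.6 CPM in TLR3-KO, where the libraries overlapped. Cxcl1 had a log2 difference of 4.05 in WT, from 5.97 and 3.70 CPM to 0.271 and 0.384 CPM, and of 0.30 in TLR3-KO, where all 4 libraries held between 7.18 and 16.1 CPM. Over the 5 measured members of this list the median log2 difference was 3.90 in WT and 0.30 in TLR3-KO, beside 0.00 and -0.03 over all genes. In both genotypes 3 of the 5 were above 0 and 1 was below 0. Cxcl2 was the 1 of the 5 called higher in libraries 1-2, 20% beside 2.73% of all genes. The test of the difference between genotypes, reported with the other tests, did not call these genes.

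Other chemokines gave a mixed account. Of 10 measured CC chemokines, Ccl2, Ccl3 and Ccl4 were called higher in libraries 1-2 and Ccl24, an eosinophil attractant, was called higher in libraries 3-4. These were 30% and 10% of the list, beside 2.73% and 3.7% of all genes, and the median log2 difference was 1.03. Of 5 further CXC chemokines, Cxcl10, a ligand of the T cell receptor CXCR3 induced by interferons, was called higher in libraries 1-2, 20% beside 2.73% of all genes. It measured 9.02 and 9.02 CPM in WT controls 1 and 2 and 4.72 and 4.00 CPM in TLR3-KO, against 0.911 to 2.41 CPM in libraries 3-4. Ccl17, which attracts T cells through CCR4, was 2.71 log2 units higher in WT libraries 1-2 and 0.39 higher in TLR3-KO, and its libraries overlapped.

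Of 20 cytokine and growth factor genes measured, 6 (30%) were called higher in libraries 1-2 and 0 in libraries 3-4, beside 2.73% and 3.7% of all genes, with a median log2 difference of 1.10. Tnf, the cytokine at the head of the NF-kB response, measured 489 and 384 CPM in WT controls 1 and 2 and 301 and 186 CPM in TLR3-KO controls 1 and 2. Libraries 3-4 held 59.9 and 93.9 CPM of it in WT and 48.6 and 122 CPM in TLR3-KO, all below the lowest of libraries 1-2 (log2 2.16, SE 0.33). Osm, an IL-6 family cytokine made by activated macrophages, was even within each set, at 301 ± 16.8 CPM against 56.0 ± 13.5 CPM (SD, n = 4), 5.95-fold apart with an SE of 0.15 in log2. Il1a, an alarmin of the IL-1 family, lay between 212 and 426 CPM in libraries 1-2 and between 58.7 and 129 CPM in libraries 3-4. Lif, another IL-6 family member, lay between 71.0 and 83.5 CPM against 12.9 and 37.2 CPM.

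Growth factors were among the most different genes. Csf1, the survival factor of macrophages, measured 30.8 and 39.5 CPM in WT controls 1 and 2 and 23.5 and 32.1 CPM in TLR3-KO, against 2.07 and 11.7 CPM and 1.94 and 5.06 CPM in libraries 3-4 (log2 2.82, SE 0.45). Gdf15, a stress-induced member of the TGF-beta family, measured 1313, 1131, 996 and 891 CPM in libraries 1-2, WT first, and 141, 232, 108 and 236 CPM in libraries 3-4, a 6.62-fold difference. Pdgfb, a mitogen for mesenchymal cells, lay between 7.68 and 14.5 CPM in libraries 1-2 and between 0.542 and 2.02 CPM in libraries 3-4. Hbegf, an EGF receptor ligand, completed the 6 cytokine and growth factor genes called in the list, with Tnf, Il1a, Lif, Osm and Csf1.

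**Figure D3:**
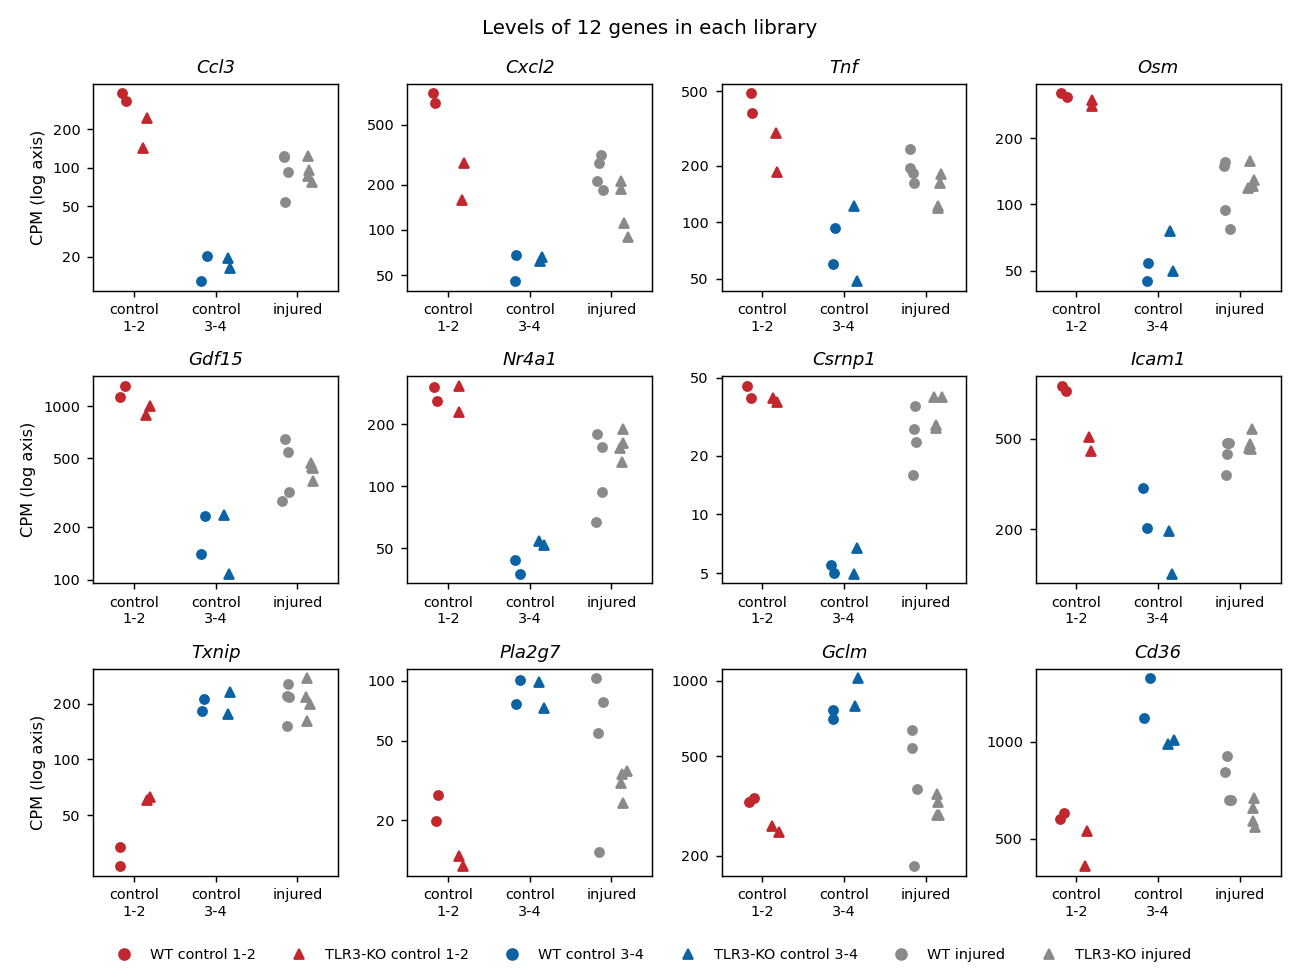
CPM per library (vertical axes, logarithmic) of 12 genes in control libraries 1-2 (red), control libraries 3-4 (blue) and injured libraries (grey), with circles for WT and triangles for TLR3-KO. For the first 8 genes the red points lie above the blue points and for the last 4 below them. Most injured libraries lie between the 2 for Ccl3, Tnf, Osm, Gdf15, Nr4a1 and Csrnp1. For Cxcl2 and Icam1, 6 of the 8 injured libraries reach the range of libraries 1-2. Those of Txnip lie at the level of libraries 3-4, and those of Pla2g7 span nearly the whole range of the controls.

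NF-kB subunits and the inhibitors it induces were mostly higher in libraries 1-2, with 19 of 21 members above 0, 7 (33.3%) called higher in libraries 1-2 and 0 called higher in libraries 3-4, beside 2.73% and 3.7% of all genes, at a median log2 difference of 0.93. The 7 were Nfkb1, Nfkb2, Rel, Nfkbiz, Bcl3, Zc3h12a and Zfp36. Nfkbiz, a nuclear IkB protein needed for secondary NF-kB targets, measured 48.9, 38.6, 35.4 and 26.4 CPM in libraries 1-2 and 6.65, 13.6, 7.67 and 14.7 CPM in libraries 3-4, WT first, a 3.83-fold difference. Bcl3, another nuclear IkB protein, was 2.78-fold higher and the subunit gene Rel 2.56-fold higher, neither with overlap. The precursor subunits differed less, with log2 differences of 1.29 (SE 0.16) for Nfkb1 and 1.16 (SE 0.13) for Nfkb2.

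Immediate early genes gave the highest share of calls among the signalling lists: 15 of 29 were called higher in libraries 1-2 and 0 in libraries 3-4, beside 2.73% and 3.7% of all genes. The 15 were Fosb, Junb, Jund, Egr1, Egr2, Egr3, Ier3, Atf3, Maff, Nr4a1, Nr4a3, Dusp1, Dusp5, Zfp36l1 and Gadd45b. Nr4a1 measured 259 and 304 CPM in WT controls 1 and 2 and 230 and 308 CPM in TLR3-KO, against 37.5 and 43.6 CPM and 52.0 and 54.0 CPM in libraries 3-4, so that the sets were far apart and the 2 genotypes close within each set. Egr1, a zinc finger factor induced within minutes by MAP kinase signalling, was 8.46-fold higher in WT and 3.07-fold higher in TLR3-KO. Its relative Egr2 was more even, at 362 ± 18.7 CPM against 116 ± 17.2 CPM (SD, n = 4). Gadd45b, a stress sensor induced by NF-kB, was 4.51-fold higher, and Maff, a small Maf protein, 3.09-fold higher. Csrnp1, a nuclear protein outside the list, lay between 37.6 and 45.6 CPM in libraries 1-2 and between 4.97 and 6.70 CPM in libraries 3-4 (log2 2.99, SE 0.14).

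Receptors and surface proteins of activation were divided. Icam1, the adhesion ligand of leukocyte integrins, measured 856 and 807 CPM in WT controls 1 and 2 and 507 and 441 CPM in TLR3-KO, against 127 to 303 CPM in libraries 3-4, and was 3.68-fold higher in WT and 3.17-fold higher in TLR3-KO. Tlr2, the receptor for bacterial lipoproteins, was the only called member of 17 Toll-like receptor and adaptor genes measured, at 2650 ± 282 CPM against 1077 ± 216 CPM (SD, n = 4). With 1 gene called, or 5.88%, that list was near the 2.73% of all genes. Cd83, a surface marker of activation, lay between 113 and 130 CPM against 46.2 and 64.1 CPM. Nlrp3, the sensor of the inflammasome, measured 141, 127, 61.0 and 57.4 CPM in libraries 1-2 and 13.4 to 28.3 CPM in libraries 3-4. Among 28 markers of classical activation measured, Icam1, Tlr2 and Cd83 were called higher in libraries 1-2, while Clec4d, a C-type lectin, and Mmp12, the macrophage elastase, were called higher in libraries 3-4, which is 10.7% and 7.14% beside 2.73% and 3.7% of all genes. Mmp12 measured 111 and 53.3 CPM in WT controls 3 and 4 and 160 and 122 CPM in TLR3-KO, against 24.5 to 44.3 CPM in libraries 1-2.

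Suppressors of signalling did not share a direction. Of 14 measured, Cish, a SOCS family protein that damps STAT5, was called higher in libraries 1-2 (8.46 to 12.2 CPM against 1.58 to 2.78 CPM). Dusp6, a phosphatase of ERK, and Tnfaip8l2, a negative regulator of innate signalling, were called higher in libraries 3-4, with log2 differences of -1.06 and -1.14. These calls were 7.14% and 14.3% of the list, beside 2.73% and 3.7% of all genes, and the median of the list was 0.17.

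Interferon and antigen presentation genes held no called member, in lists short enough that the share of all genes called in either direction, 6.44%, would give few. Of 33 type I interferon-stimulated genes, 24 interferon-gamma-inducible genes and 16 genes of MHC class II presentation, 0 were called in either direction, and the median log2 differences were 0.16, 0.35 and 0.04. Gbp2, an interferon-induced GTPase, measured 41.8 and 40.6 CPM in WT controls 1 and 2 and 13 and 12.4 CPM in TLR3-KO against 7.65 to 19.8 CPM in libraries 3-4, so the sets overlapped. Oasl1 had log2 differences of 1.99 in WT and 0.02 in TLR3-KO. H2-Eb1, an MHC class II chain, measured 106 and 75.6 CPM against 42.8 and 36.8 CPM in WT, and 134 and 84.7 CPM against 579 and 207 CPM in TLR3-KO, with the order of the sets turned round between genotypes. H2-DMa, the peptide-loading chain, was higher in libraries 1-2 of both genotypes, by 0.78 and 1.05 in log2.

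Genes of the labelled cell type were measured in every library of both sets. Of 34 measured genes of alveolar macrophage identity, 26 were above 0 at a median log2 difference of 0.31, and Krt19 alone was called, higher in libraries 1-2, a share of 2.94% that is near the 2.73% of all genes. Krt19, a keratin of the identity list, measured 202, 215, 543 and 475 CPM in libraries 1-2 and 99.0, 115, 103 and 142 CPM in libraries 3-4, WT first. Car4, a carbonic anhydrase typical of alveolar macrophages, lay between 1102 and 1231 CPM in libraries 1-2 and between 402 and 946 CPM in libraries 3-4 (log2 0.86), and Mrc1, the mannose receptor, was 1.76-fold higher. Of 18 genes of recruited monocytes and interstitial macrophages, Fn1, fibronectin, was called higher in libraries 1-2, by 2.29-fold, the median being -0.08. That share was 5.56%, beside 2.73% of all genes. Csf1r, the receptor for Csf1, was 1.62-fold higher.

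Among genes with a mean of at least 5 CPM in the higher set, those higher in libraries 3-4 were led by other functions. Only 176 of the 447 genes called in this direction reached that mean. The largest log2 difference of the 447 was 5.46 in size, in a gene below that mean that is not named here. Txnip, the thioredoxin-interacting protein that restrains glucose uptake (chromosome 3, 96557957 to 96561883), measured 183 and 211 CPM in WT controls 3 and 4 and 231 and 176 CPM in TLR3-KO. In libraries 1-2 it measured 26.4 and 33.6 CPM in WT and 60.6 and 62.3 CPM in TLR3-KO, 4.26-fold lower in the fit (log2 -2.09, SE 0.20). Pla2g7, the secreted phospholipase that breaks down platelet-activating factor, measured 76.3, 101, 99.0 and 73.3 CPM in libraries 3-4 and 19.8, 26.6, 13.2 and 11.7 CPM in libraries 1-2. Slc22a4, a carrier of ergothioneine and carnitine, had the smallest SE of the 12 genes named in this direction (log2 -1.88, SE 0.12), at 32.7 ± 2.87 CPM against 8.15 ± 1.13 CPM (SD, n = 4). Rnase6, an antimicrobial ribonuclease, lay between 22.1 and 59.1 CPM in libraries 3-4 and between 5.50 and 15.4 CPM in libraries 1-2.

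The remaining genes among these 12 were less even. Cd151, a tetraspanin, measured 9.33 CPM in WT control 3 but 51.3, 59.0 and 37.4 CPM in the other libraries of 3-4, against 6.54 to 8.41 CPM in libraries 1-2. Cdkn2b, the inhibitor p15 of the cell cycle, was 1.73-fold higher in WT libraries 3-4 and 10.5-fold higher in TLR3-KO libraries 3-4. Lypd6b, Spsb1, Napepld and Fam181b had log2 differences of -2.29, -1.99, -1.97 and -1.86. Napepld makes endocannabinoid-like lipids, and Spsb1 directs the inducible nitric oxide synthase to degradation. Nudt6, at -1.87, lies antisense to Fgf2, and since the strand setting of the counting is not given in the sources used here, reads of the 2 genes cannot be told apart. Hmga2-ps1, at -1.88, is a pseudogene of a multigene family, so its reads may come from a near-identical copy.

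Among oxidant defence genes, the RNA of the regulator NRF2 and that of most listed genes differed in opposite directions. The activity of NRF2 was not measured. Nfe2l2, which encodes the factor NRF2, was called higher in libraries 1-2, at 648, 623, 526 and 586 CPM against 236 to 314 CPM. Of 27 measured members of the NRF2 and antioxidant list, 22 were below 0, and Nqo1, Gclm, Gsta4, Me1 and Blvrb, all enzymes of detoxification, glutathione or NADPH supply, were called higher in libraries 3-4. Nqo1, a quinone reductase, measured 49.9, 39.6, 69.8 and 53.5 CPM in libraries 3-4 and 19.5, 19.6, 13.6 and 13.1 CPM in libraries 1-2, WT first. Gclm, a subunit of the enzyme that begins glutathione synthesis, was 823 ± 140 CPM against 295 ± 46.1 CPM (SD, n = 4), with no overlap. The list's median log2 difference was -0.40, beside -0.01 over all genes, and 5 of 27 called higher in libraries 3-4 compares with 3.7% of all genes.

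Receptors for lipid and particles also differed one by one. Cd36, the receptor for oxidised lipids, measured 1576, 1187, 1010 and 986 CPM in libraries 3-4 and 577, 602, 411 and 531 CPM in libraries 1-2, WT first. Colec12, a scavenger receptor of the collectin family, was 2.89-fold higher in libraries 3-4, while Fcgr1, the high-affinity IgG receptor, was called higher in libraries 1-2 (log2 1.14). Over the 19 scavenger and phagocytic receptors measured the median was 0.30. Of them 5.26% were called higher in libraries 1-2 and 10.5% higher in libraries 3-4, beside 2.73% and 3.7% of all genes. The cholesterol synthesis genes Mvk and Tm7sf2 were called higher in libraries 3-4 (log2 -1.20 and -1.04), and the 21 genes of that list, of which 1 was called in the other direction, had a median of -0.04. These calls were 9.52% and 4.76% of the list, beside 3.7% and 2.73% of all genes. In glycolysis Hk2 and Pfkp, which encode hexokinase 2 and a phosphofructokinase, were called higher in libraries 1-2, by 2.17-fold and 2.12-fold. They were 11.1% of 18 genes measured, beside 2.73% of all genes. Of 33 genes of oxidative phosphorylation 0 were called, at a median of -0.01, where the 6.44% of all genes called in either direction would give few.

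**Figure D4:**
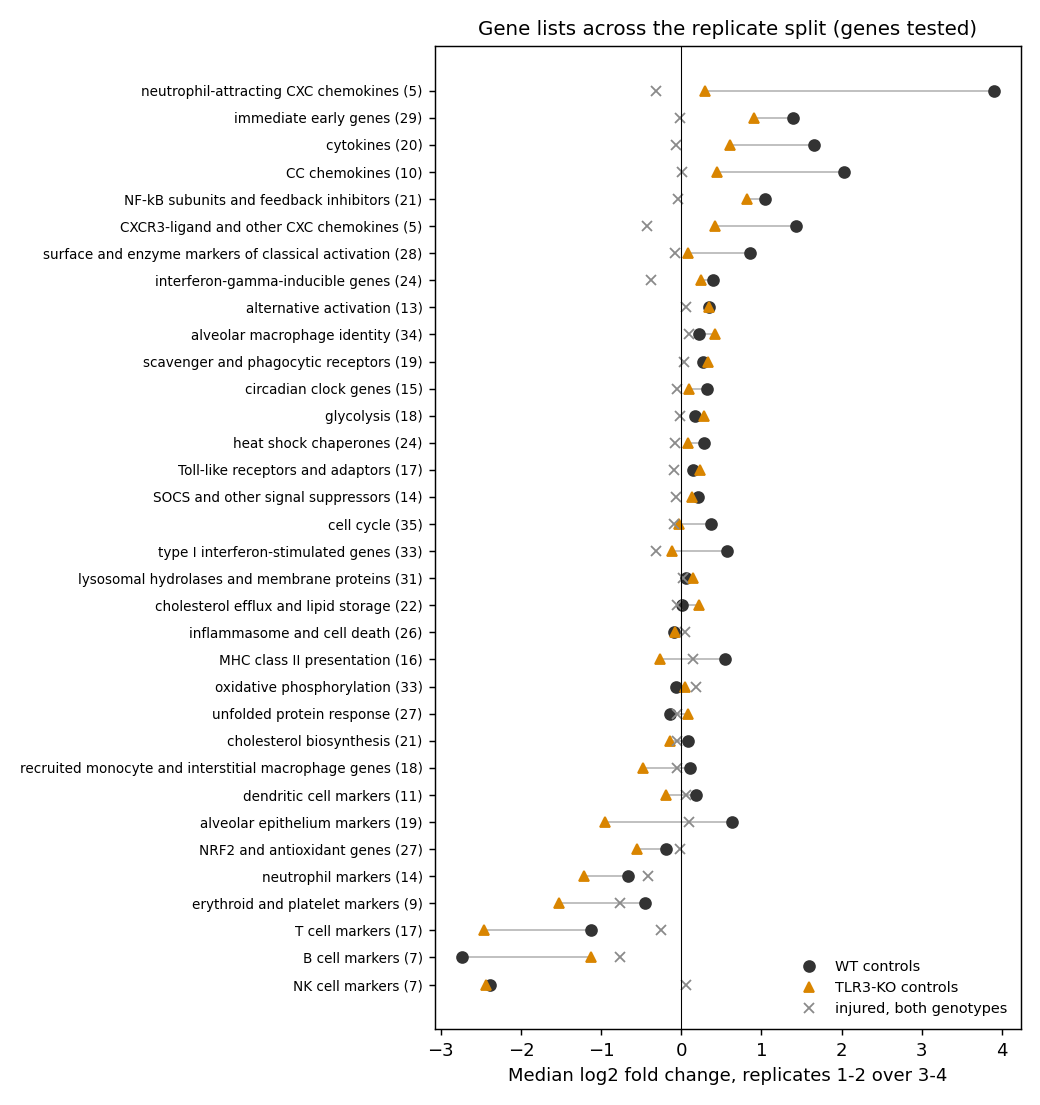
Median log2 fold change of libraries 1-2 over 3-4 for the gene lists with 5 or more genes tested (number in brackets), in WT controls (circles), TLR3-KO controls (triangles) and the injured libraries of both genotypes (crosses). Chemokine, cytokine and immediate early lists lie to the right and lymphocyte marker lists to the left in both control genotypes, while most injured medians lie near 0.

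Synpo, Cbfa2t3 and Gm13889 were also among the 12 genes named for the largest differences in favour of libraries 1-2. Synpo, an actin-associated protein, lay between 6.81 and 14.5 CPM against 0.197 and 1.98 CPM. Cbfa2t3, a transcriptional corepressor, measured 13.1, 13.5, 28.5 and 26.8 CPM in libraries 1-2 and 1.38, 2.19, 3.37 and 2.81 CPM in libraries 3-4, so that TLR3-KO was above WT within each set. Gm13889 lay between 2.88 and 8.32 CPM against 0.548 and 0.675 CPM.

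Markers of T and NK cells were lower in libraries 1-2, and those of B cells were high in single libraries of either set. All 17 T cell, 7 NK cell and 7 B cell markers measured had fitted differences below 0, with medians of -1.60, -2.41 and -1.74 in log2. Of them 6 (35.3%), 3 (42.9%) and 0 were called higher in libraries 3-4, beside 3.7% of all genes. Without WT control 4 the medians of the NK and B cell markers were -1.34 and -0.64. Few reads lay behind several of these values: Cd3g had 13 counts over the 4 libraries of 1-2 and 217 over those of 3-4, and Gzmb had 2 and 104. The summed T cell markers lay between 202 and 348 CPM in libraries 1-2 and between 312 and 491 CPM in libraries 3-4, but Cd2 made up 91.8% of that sum. Without counts from sorted cells, fewer cells of a type and less RNA per cell cannot be told apart.

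Summed NK cell markers lay between 1.42 and 2.65 CPM in libraries 1-2 and between 2.68 and 8.92 CPM in libraries 3-4. The other marker sums overlapped between the sets. B cell markers summed to 3.45, 0.457, 16.1 and 5.85 CPM in libraries 1-2, WT first, and to 1.23, 28.3, 2.47 and 48.5 CPM in libraries 3-4, so that only WT control 4 and TLR3-KO control 4 were above all of libraries 1-2. Neutrophil markers summed to 214 to 257 CPM against 121 to 215 CPM, with Trem1 at 51.8% of the sum and Elane and Stfa2 at 0 in all controls. Alveolar epithelium markers summed to 2135 to 2942 CPM against 1927 to 3124 CPM, of which Lyz1 gave 89.5%. The median log2 difference of the 19 markers was 0.63 in WT and -0.95 in TLR3-KO, with 5 above 0 and 3 below 0 in both genotypes and 0 called. Erythroid and platelet markers summed to 13.7 to 127 CPM against 63.7 to 502 CPM, endothelial and fibroblast markers to 33.3 to 47.6 CPM against 41.1 to 86.9 CPM with Tek and Cldn5 at 0, dendritic cell markers to 40.0 to 58.7 CPM against 36.9 to 68.5 CPM, and eosinophil and mast cell markers to 1.12 to 2.62 CPM against 0.935 to 3.12 CPM with Epx and Ms4a2 at 0. Counted by marker, 9 of 14 neutrophil markers measured were below 0 and 5 above, at a median log2 difference of -0.90, unlike the order of their sum. Erythroid and platelet markers had 8 of 9 below 0 (median -1.22), and endothelial and fibroblast markers 3 of 4 (median -0.59). Dendritic cell markers had 6 of 11 below 0 (median -0.08), and eosinophil and mast cell markers 1 of 3 (median 0.55). The part of these cells in the differences above was not tested.

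Total counts per library lay between 36486614 and 59640251 in the controls and between 29667102 and 59640251 in all 16. In WT the totals of libraries 1-2 (59640251 and 43771717) were both above those of 3-4 (40627286 and 36486614), while in TLR3-KO the totals of 1-2 (42194546 and 47517700) overlapped those of 3-4 (47430305 and 43479731). The sets had 48281100 ± 7895010 and 42006000 ± 4617340 counts (SD, n = 4). An exact two-sided permutation test within genotype gave p = 0.278, but its 36 arrangements allow no p below 0.0556, so it could not pass 0.05, and the part of depth in the differences was not tested. Tlr3 followed the genotype labels, with 2.18 to 4.53 CPM in the WT control libraries and 0.274 to 0.717 CPM in those of the knockout. Within WT it was lower in controls 1 and 2 (2.18 and 2.67 CPM) than in controls 3 and 4 (4.53 and 4.52 CPM), while the TLR3-KO sets overlapped. RNA of the sex chromosomes moved with the split in TLR3-KO only. Xist measured 42.3, 31.6, 20.3 and 0.230 CPM in TLR3-KO controls 1 to 4, while 4 Y-linked genes summed to 0.758, 1.16, 23.2 and 169 CPM, so that TLR3-KO control 3 held both. In WT controls Xist was at most 0.0503 CPM in every library, and 598 and 659 genes were called higher in libraries 1-2 and 3-4 in WT alone, where the rule is easier to meet with fewer libraries. With TLR3-KO control 3 left out, 386 and 442 genes were called in both genotypes together.

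Whether the split differed between genotypes is another contrast than the one that chose the sets, but it was measured in the same 8 libraries, so its p-values are not independent of that choice. With this limit, edgeR's quasi-likelihood test with Benjamini-Hochberg adjustment was applied to the interaction of genotype and set over all 12067 genes. Whether the replicates were separate animals is not given in the sources used here, and these p-values measure only the spread between libraries. In TLR3-KO the sets also differed in Xist and Y-linked RNA, while in WT all controls were alike in Xist. A difference by genotype and one tied to the sex-chromosome RNA therefore cannot be told apart in this contrast. The test called 3 genes (0.0249%) at an adjusted p under 0.05. An unadjusted p under 0.05 was found for 706, little above the share of 0.05 that chance alone would give. Sftpc, surfactant protein C of alveolar type II cells, measured 9.0 and 7.04 CPM against 5.07 and 5.95 CPM in WT, and 2.39 and 2.21 CPM against 10.6 and 12.1 CPM in TLR3-KO. The order of the sets was thus opposite in the 2 genotypes, with a difference of -2.89 (SE 0.27, edgeR adjusted p = 0.0275) on the log2 scale. The 19 alveolar epithelium markers, Sftpc among them, had median log2 differences of 0.63 in WT and -0.95 in TLR3-KO. Col4a1, a basement membrane collagen, measured 1.86 and 1.60 CPM against 0.714 and 0.904 CPM in WT and 0.450 and 0.610 CPM against 6.22 and 4.53 CPM in TLR3-KO (difference -4.49, SE 0.45, edgeR adjusted p = 0.0275). Ptgs2, the inducible cyclooxygenase of prostaglandin synthesis, measured 7.39 and 5.8 CPM against 1.21 and 1.59 CPM in WT and 0.687 and 0.737 CPM against 2.76 and 1.75 CPM in TLR3-KO (difference -3.96, SE 0.44, edgeR adjusted p = 0.0449).

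These 3 calls depended on the fit. In a fit of all 16 libraries their edgeR adjusted p-values were 0.317, 0.530 and 0.582, and each was lost when control 1, 2 or 3 of either genotype was left out, but not when either control 4 was. Over every alternative run, from DESeq2 as the lowest, the adjusted p-values spanned 5.37e-13 to 0.346 for Sftpc, 7.93e-11 to 0.530 for Col4a1 and 7.36e-10 to 0.582 for Ptgs2. With the replicate number as a block, which the labels' numbering allows for this contrast, 19 genes were called. Clu, a secreted chaperone, came next (difference -3.02, edgeR adjusted p = 0.0541) and then Gm11428 (-1.53, edgeR adjusted p = 0.125). The chemokines whose differences looked larger in WT were not called: the log2 difference of the TLR3-KO split from the WT split was -3.74 (SE 0.64) for Cxcl1, -3.35 (SE 0.77) for Cxcl3, -2.36 (SE 0.46) for Ccl4 and -2.01 (SE 0.39) for Cxcl2, with edgeR adjusted p-values of 0.246, 0.331, 0.250 and 0.246.

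The injured libraries carry the same title numbers and were not used to choose the sets. Between injured libraries numbered 1-2 and 3-4, edgeR's quasi-likelihood test with genotype as covariate called 0 of 12067 genes (0%) at an adjusted p under 0.05, and DESeq2 called 0. In the edgeR test 77 genes had an unadjusted p under 0.05, well below the share of 0.05 that chance alone would give. The test was thus conservative, and 0 calls do not show that the injured libraries lack a split. By the rule used for the controls 7 genes (0.058%) were at least 2-fold apart with no overlap, 4 (0.0331%) higher in injured 1-2 and 3 (0.0249%) higher in injured 3-4, and 63 genes (0.522%) had no overlap at any fold change. Of the 330 genes called higher in control libraries 1-2, 131 had the same sign in the injured libraries and 1 was 2-fold apart, at a median log2 difference of -0.04. Of the 447 called higher in control libraries 3-4, 254 had the same sign and 7 were 2-fold apart, again at a median of -0.04. The injured difference was -0.04 (SE 0.27) for Ccl3, 0.13 (SE 0.29) for Cxcl2, 0.12 (SE 0.18) for Tnf, -0.01 (SE 0.30) for Nr4a1 and 0.05 (SE 0.19) for Txnip, each with an edgeR adjusted p of 0.9998. The 5 genes with the lowest p-values, Wfdc10, Mpst, Epn3, Beta-s and Hoga1, had log2 differences of 0.75, 1.18, 1.43, -0.78 and 1.08 and the same edgeR adjusted p of 0.9998.

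**Figure D5:**
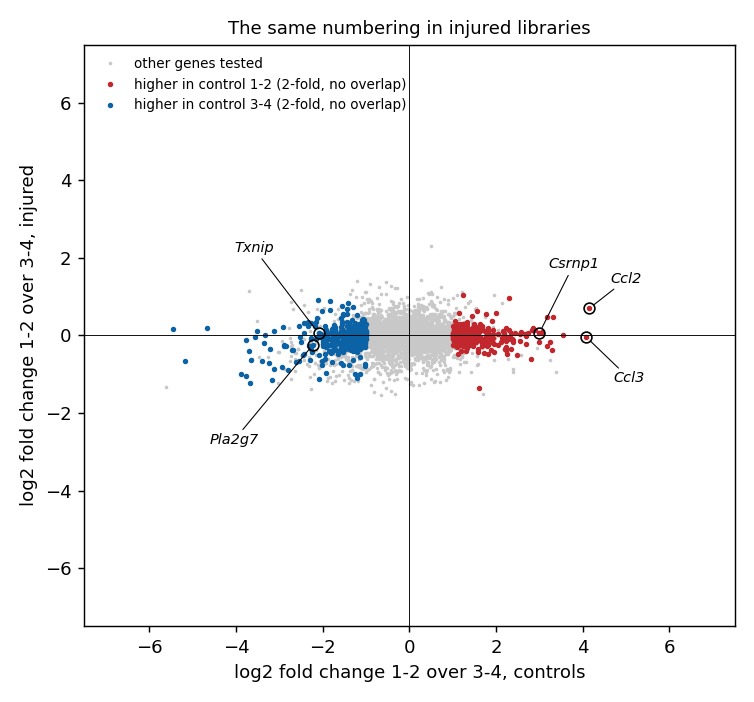
Log2 fold change of libraries numbered 1-2 over 3-4 for each gene tested, in controls (horizontal axis) and in injured libraries (vertical axis). Red and blue points are the genes called in the controls, which spread along the horizontal axis and stay close to 0 on the vertical axis; ringed genes are named.

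In mean level, the injured libraries usually lay between the control sets. The mean of the 8 injured libraries fell between the means of the control sets for 246 of the 330 genes called higher in libraries 1-2 and for 415 of the 447 called higher in libraries 3-4. These genes were called because the control sets lay apart, so the choice favoured a middle position and the counts support nothing. On the log2 scale the injured mean was nearer that of libraries 3-4 for 33 of the 330 genes and for 290 of the 447. Ccl3 measured 53.9 CPM in the lowest, 94.3 CPM at the median and 124 CPM in the highest injured library, so that all 8 were above control libraries 3-4 and below control libraries 1-2. Nr4a1 lay between 67.0 and 189 CPM with a median of 154 CPM, and Osm between 77.5 and 157 CPM with a median of 125 CPM, in both cases between the control sets without touching either. Gdf15 lay between 282 and 644 CPM, likewise between the sets.

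Several genes departed from that middle position, in some or all injured libraries. Rel was at or above the lowest of control libraries 1-2 in all 8 injured libraries, and Il1a in 7. Cxcl2, Icam1, Ccl2 and Synpo were so in 6 each, and Tnf and Csrnp1 in 2 each. Csf1 lay between 27.9 and 132 CPM in injured libraries with a median of 51.2 CPM, at or above the lowest of control libraries 1-2 in all 8. Txnip lay between 152 and 274 CPM with a median of 217 CPM, and all 8 injured libraries were above control libraries 1-2, at the level of libraries 3-4. Mmp12 lay between 10.6 and 49.3 CPM, below all control libraries 3-4. Cdkn2b lay between 3.30 and 16.2 CPM, also below control libraries 3-4 in all 8. Pla2g7 spanned nearly the whole range of the controls, from 13.8 to 103 CPM. For 30 of the 330 genes all 8 injured libraries were below the lowest of control libraries 1-2, and for 124 of the 447 all 8 were above the highest of control libraries 1-2.

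The promoter windows are described for the genes that the control split called, so their motif shares give no independent support, and no test was run on them. RefSeq starts were found for 243 of the 330 genes called higher in libraries 1-2, 315 of the 447 called higher in libraries 3-4 and 8628 of the genes tested. The kB motif, searched on both strands of the 250 bases before each start, was present in 31 of 330 windows (9.39%) of the first set, in 6 of 375 windows (1.60%) of the second and in 4.78% of 11015 windows of all genes tested, beside 3.90% of all 32851 windows. The AP-1 motif TGANTCA was in 7.88%, 5.33% and 4.75% of the windows in the same order, and 6.75% of all windows. TGACGTCA, the full CREB motif, was in 3.03%, 2.40% and 2.59%, and 1.55% of all windows, while its variant TGCGTCA, present 4 times before Nr4a1, was in 1.52%, 3.73% and 2.93%, and 1.75% of all windows. The E-box CACGTG was in 8.18%, 5.33% and 8.27%, and 6.02% of all windows. A match describes the letters in the window. The shares count windows, so a gene with several starts counts more than once, and such windows can overlap.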

How the data were processed

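RNA from lavage macrophages was sequenced in 16 libraries, 4 in each of 4 groups. Per the labels' protocols, total RNA was extracted with a column kit and made into TruSeq mRNA libraries read as paired ends. Per the submitters' processing notes, FastQC 0.11.3, TopHat2 2.0.13, Bowtie2 2.2.1, Cufflinks and Cuffdiff 2.1.1 were used, with mm10 as genome. The authors deposited a table of HTSeq counts per gene symbol, whole numbers without normalization; since its version, strand setting and annotation are not given in the sources used here, multicopy and overlapping genes are uncertain. The deposited Cuffdiff values were not used here.

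Of 23159 symbols, 22695 were placed with GENCODE mouse M21 (1917 through an older symbol). filterByExpr (minimum count 10) kept 12455 genes, 388 of them on X or Y, which left 12067 to test. Counts were scaled by TMM (factors 0.917 to 1.10 in the controls) and fitted with edgeR 4.0.16 in R 4.3.3 by quasi-likelihood (biological coefficient of variation 0.165 in the controls and 0.196 in the injured libraries). The SE of each fold change on the log2 scale was taken from its F statistic (absolute change over root F). Adjusted p-values are Benjamini-Hochberg over all genes tested, threshold 0.05. Each gene called in the control split met the 2-fold and no-overlap rule, with overlap judged on CPM of library totals. Figures were drawn with matplotlib 3.10.9 and tables made with scipy 1.17.1, numpy 2.4.6 and pandas 2.3.3 under Python 3.11.15. The model was tested on simulated data. No library was a copy of another in its group (chi-square per degree of freedom at least 8.43). The 10 most abundant genes held 13.9% to 18.3% of each control library.

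The named genes were the 12 highest and 12 lowest fold changes among genes without overlap at a mean of at least 5 CPM in the higher set, the 5 lowest p-values of each tested contrast, and up to 5 members of each of 36 gene lists; genes of these lists that were called are also named, apart from a few that are not reported here. The members, lists and rule were chosen with earlier results of these data known. The titles number the replicates of each group, and whether these numbers pair libraries was checked on deviations from the group means. Same-numbered controls of the 2 genotypes correlated at 0.63 to 0.69, while controls from opposite sets correlated at -0.68 to -0.45. For 6 of the 8 controls, the closest control of the other genotype carried the same number. Same-numbered controls fell in the same set by choice, so these values cannot show pairing by number. Within the sets, the contrast of 1 with 2 gave r = -0.03 and that of 3 with 4 r = 0.31. In the injured libraries the same-number correlation was -0.58 to 0.18. The sets are combinations of numbers, so a block on the number can be fitted for the genotype difference but not for the split itself. Alternatives were RLE size factors, DESeq2 1.42.0, other filters, fold thresholds and groups of libraries, the block, leaving out 1 library at a time, and 3 settings chosen after seeing the data: library totals without TMM, overlap on TMM-scaled CPM and a minimum of 5 CPM.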

Additional observations from a re-analysis of the deposited data

Results flagged for a closer look

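Sftpc, Col4a1 and Ptgs2 were the 3 genes whose control split differed between the genotypes by edgeR's quasi-likelihood test, with log2 differences of -2.89, -4.49 and -3.96 (TLR3-KO minus WT), in the same libraries whose expression chose the sets. In each of them WT libraries 1-2 were above WT libraries 3-4 and TLR3-KO libraries 1-2 were below TLR3-KO libraries 3-4. Xist and Y-linked RNA moved with the split in TLR3-KO only, so genotype and sex-chromosome RNA cannot be told apart in these differences.

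Of 356 sets of 4 libraries, taken for 89 named genes, 24 held a library far from the other 3 by Dixon's criterion, where chance gives about 1 in 20, or 17.8. Injured WT library 2 stood apart for 7 genes, most of them higher in control libraries 3-4: it held 22.5 CPM of Lypd6b, 16.2 CPM of Cdkn2b, 17.0 CPM of Napepld, 33.9 CPM of Slc22a4, 235 CPM of Colec12 and 258 CPM of Blvrb, each above the other injured libraries 1-2, and 537 CPM of Bhlhe40, below them. Injured WT library 3 did so for Slc22a4 at 28.9 CPM and Nqo1 at 42.5 CPM, both above the other injured libraries 3-4. Among the controls, TLR3-KO control 3 was high in Lypd6b (38.3 CPM) and Cdkn2b (44.7 CPM), and TLR3-KO control 1 was high in Pdgfb (14.5 CPM) and Hoga1 (0.450 CPM) and low in Napepld (3.29 CPM). TLR3-KO control 4 was high in Beta-s (392 CPM). WT control 4 was high in Gbp2 (19.8 CPM) and Fn1 (554 CPM).

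The other injured libraries that stood apart were TLR3-KO library 3 for Col4a1 (5.70 CPM), Icam1 (453 CPM) and Tnfaip8l2 (52.0 CPM), TLR3-KO library 1 for Nfkbiz (28.3 CPM) and Nlrp3 (67.0 CPM), WT library 4 for Cxcl3 (71.1 CPM) and WT library 1 for Bcl2l1 (186 CPM).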

How the results depend on the processing

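The counts of the control split (330 genes higher in libraries 1-2 and 447 higher in 3-4) were 767 and 1147 at a 1.5-fold threshold and 55 and 62 at 4-fold. They were 218 and 192 among genes with at least 5 CPM in 3 libraries, 254 and 176 with a mean of 5 CPM in the higher set, 598 and 659 in WT alone and 544 and 878 in TLR3-KO alone. Leaving out 1 library at a time gave 335 to 427 and 442 to 619. RLE size factors, DESeq2, no filter, genes of X and Y, all 16 libraries in one fit, and overlap on TMM-scaled CPM kept both counts within 1.5 times, as did library totals without TMM, which gave 242 and 577.

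The genotype difference called 3 genes in the fit reported, 65 with DESeq2, 38 with no filter, 1 with at least 5 CPM in 3 libraries, 0 in a fit of all 16 libraries, 19 with the replicate number as a block, and 0 to 16 with 1 library left out; the cause was not tested. The injured split called 0 genes under every alternative run, with 0 as lowest and highest when 1 library was left out. Of 1339 values of 79 named genes under alternatives, 1246 moved by less than the spread between replicates, 93 moved by more and 0 changed sign among called values. Of 360 list medians, 292 moved by less than that spread and 68 by more. Counts of a few reads, as for lymphocyte markers, limit the precision of those fold changes.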

Other observations

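Single genes of the clock, of replication and of cell death were called in the control sets, in lists whose other members mostly were not. Bhlhe40, a repressor of the circadian clock that is also induced by cytokines, measured 1394 and 1274 CPM in WT controls 1 and 2 and 1250 and 1218 CPM in TLR3-KO, against 326 to 483 CPM in libraries 3-4, and Cry1, another clock repressor, was called with it, 13.3% of 15 clock genes measured beside 2.73% of all genes. Mcm2 and Mcm4, subunits of the replicative helicase, were called higher in libraries 1-2, each with a log2 difference of 1.04, of 35 cell cycle genes whose median was 0.17 and of which these were 5.71%. Pmaip1, the BH3 protein Noxa, and Bcl2l1, which encodes the survival protein Bcl-xL, were called higher in libraries 1-2 along with Nlrp3 (log2 1.22 and 1.15 for the first 2). Of the 26 genes of that list, 3 (11.5%) were thus called higher in libraries 1-2 and 1 (3.85%) higher in libraries 3-4, beside 2.73% and 3.7% of all genes, and the median was 0.04.

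Among 24 heat shock chaperones only Hspa4l was called higher in libraries 1-2, a share of 4.17% that is near the 2.73% of all genes. This HSP110 family member measured 125, 134, 83.9 and 108 CPM in libraries 1-2 and 35.0, 42.5, 31.1 and 30.6 CPM in libraries 3-4, WT first. Of 27 unfolded protein response genes, 31 lysosomal genes and 22 genes of cholesterol efflux and lipid storage, 0 were called, with median log2 differences of -0.03, 0.14 and 0.08. In lists this short the 6.44% of all genes called in either direction would give few. Within the neutrophil list Retnlg, G0s2 and Slfn4 were called higher in libraries 3-4, 21.4% of 14 measured beside 3.7% of all genes. The summed level of the list was lower there in most libraries. Slfn4 measured 5.96, 16.6, 7.55 and 16.2 CPM in libraries 3-4, 4.18 to 4.65 CPM in libraries 1-2, and 9.75 to 163 CPM in injured libraries. Il7r, a T cell marker also found on macrophages, lay between 4.60 and 11.2 CPM in libraries 3-4 and between 2.1 and 3.98 CPM in libraries 1-2.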
